A study of Mus musculus with 4 samples.

Results

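Toll-like receptors are sensors of microbial molecules, and the 10 genes described here are 7 of these receptors, Unc93b1, Myd88 and Irak3. They were chosen by name, from 55335 genes in the deposited tables, and a gene's value is the sum of the fragments counted in all of its exon entries. The RNA came from cells labelled as CD4+ T cells of dorsal skin, in 4 libraries. All mice were 8 to 12 weeks old, carried floxed Mettl3 alleles (Mettl3fl/fl) and received imiquimod cream (5%) on the back for 5 days, at a daily amount of 15 or 62.5 mg that the sources used here do not assign to single mice. The 2 control libraries were Mettl3fl/fl, and the 2 Cd4-Cre libraries were Mettl3fl/fl;Cd4-Cre, in which the Cd4 promoter, active in developing T cells, drives Cre recombinase. Mettl3 encodes the enzyme of the RNA N6-methyladenosine writer. The cells came from digested dermis and were stained for CD4 and CD45. How the gates were set and how many mice went into a library the sources used here do not say, so the p-values reflect how far these libraries spread, which may be technical.

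Toll-like receptors work in 2 places. Tlr7, Tlr8, Tlr9 and Tlr13 sit in endosomes and bind nucleic acids, and they reach that compartment with the help of the membrane protein Unc93b1. Tlr1, Tlr2 and Tlr4 sit at the cell surface and bind bacterial lipopeptides and lipopolysaccharide. All of these receptors signal through the adaptor Myd88 to NF-kB, and Irak3, a kinase-like protein without kinase activity of its own, restrains that signal. Imiquimod is an agonist of Tlr7. Myeloid cells carry most of these receptors in skin, while T cells are known for the antigen receptor.

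Levels below are in CPM, counts scaled to a common library total with TMM factors, and a library's total was between 3614418 and 4537006 fragments. Where a library had no fragment of a gene, levels up to the worth of 3 fragments, 0.655 to 0.792 CPM by library, remain possible by counting error alone. Control 2 stood apart: 4064 of the 12434 genes tested (32.7%) had no fragment there, against 221 to 860 in the other libraries. Mettl3 had 195 fragments in control 1, 49 in control 2, 121 in Cd4-Cre 1 and 158 in Cd4-Cre 2. The sources used here do not say which part of Mettl3 was deleted, so these counts do not check the genotype labels. Xist, which marks an inactive X chromosome, had 1858 fragments in control 1, 8909 in control 2, 5442 in Cd4-Cre 1 and 20 in Cd4-Cre 2. Ddx3y, Eif2s3y, Kdm5d and Uty on the Y chromosome held 76, 1, 0 and 118 fragments in the same order, so control 1 held both kinds of transcript. The label of the cells was checked against markers. T cell markers (15 genes) summed to 1131 CPM in control 1, 336.6 in control 2, 331.5 in Cd4-Cre 1 and 176.8 in Cd4-Cre 2, and Cd4 itself had counts of 777, 0, 420 and 9 in this order. Macrophage and monocyte markers (14 genes, led by Lyz2) summed to 18180, 9373, 26480 and 23440 CPM, more than T cell markers in every library.

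What could be counted differed between the genes. Counting was by exon entry of the annotation, and 64.8% of entries share their coordinates with another entry and held 0 fragments. Tlr9 (GRCm38 chromosome 9, 106222598 to 106226883, plus strand) and Tlr2 (chromosome 3, 83836272 to 83841767, minus strand) had 100% of their exon bases in exactly 1 entry. The share was 97.8% in Tlr13 (chromosome X, 106143204 to 106160493, plus strand) and 84.4% in Tlr4 (chromosome 4, 66827584 to 66930284, plus strand). These 4 genes were thus counted mostly over their long coding exon. In Tlr7 (chromosome X, 167304929 to 167330558, minus strand) the share was 3.70%, in Tlr8 (chromosome X, 167242696 to 167264329, minus strand) 4.96%, in Irak3 (chromosome 10, 120141648 to 120202130, minus strand) 11.5% and in Tlr1 (chromosome 5, 64924679 to 64933563, minus strand) 13.9%. Myd88 (chromosome 9, 119335934 to 119341411, minus strand) had 23.3% and Unc93b1 (chromosome 19, 3935186 to 3949340, plus strand) 25.2%. The longest exon entry of Tlr7, of 3557 bases, held only 2 bases of its own, and no fragment was counted in it.

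**Figure D1:**
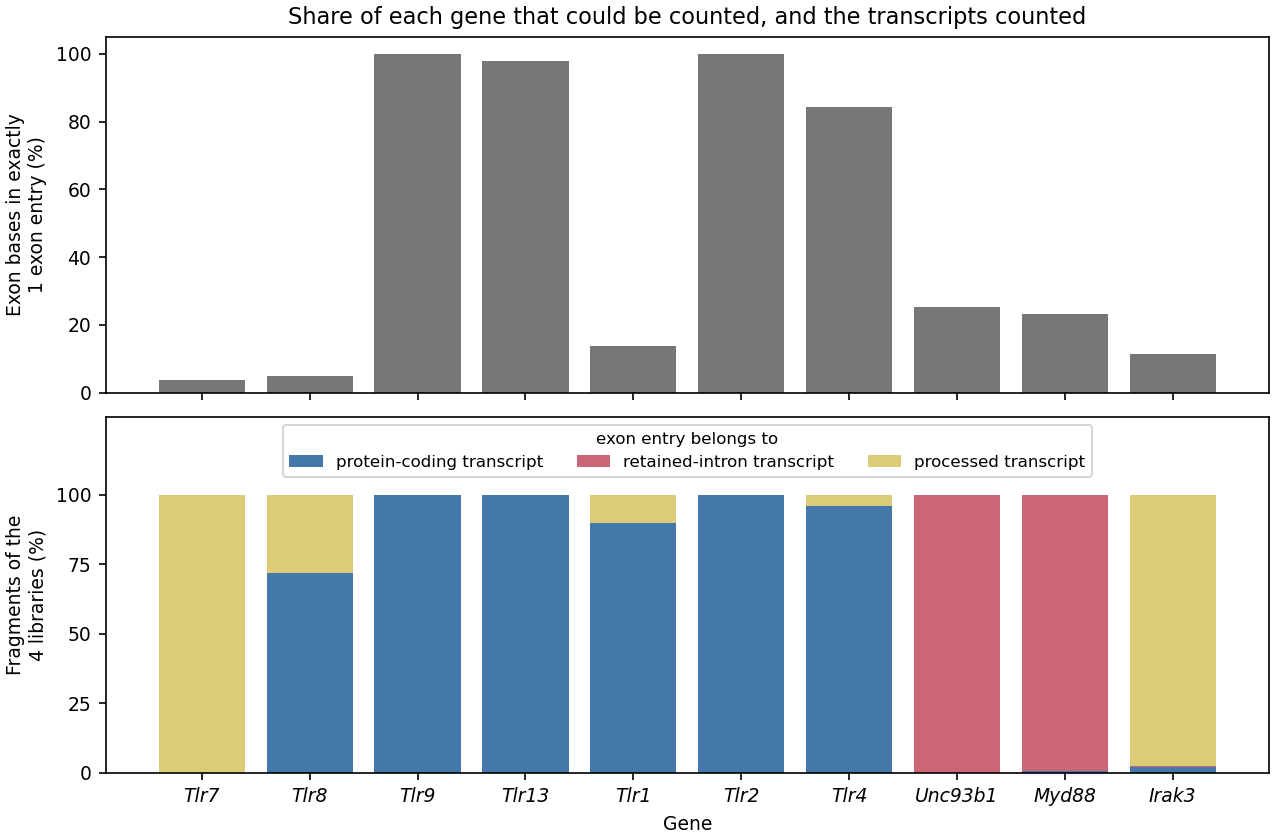
The upper panel plots the percent of a gene's exon bases that lie in exactly 1 exon entry, and the lower panel the percent of its fragments, over the 4 libraries together, by the type of transcript that holds the entry. Tlr9, Tlr13, Tlr2 and Tlr4 were counted in protein-coding transcripts, whereas all fragments of Unc93b1 and 99.2% of those of Myd88 lay in retained-intron entries.

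All 18 fragments of Tlr7 lay in a single exon entry of 119 bases. It is exon 3 of Tlr7-206, a transcript annotated as processed rather than protein-coding, at chromosome X, 167317680 to 167317798 on the minus strand. Its sequence in GENCODE M21 (GRCm38), 5′ to 3′, is shown because it is all that was counted of the imiquimod receptor.
Tlr7 exon 3 of Tlr7-206: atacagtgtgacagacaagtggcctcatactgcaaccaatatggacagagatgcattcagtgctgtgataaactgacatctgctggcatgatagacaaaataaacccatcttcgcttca

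Tlr7, the receptor of imiquimod, had 0 fragments in control 1, 0 in control 2, 8 in Cd4-Cre 1 and 10 in Cd4-Cre 2. Both Cd4-Cre libraries, at 2.00 and 2.36 CPM, lay above both controls. The mean of the Cd4-Cre libraries was 3.01 times a floor of 3 fragments per control library. This bound allows for counting error in the controls only. It leaves out counting error in the Cd4-Cre libraries and uneven amplification. The gene did not pass the filter on low counts (filterByExpr at a minimum count of 10), so the fit over all genes gave it no p. Without that filter, its adjusted p was 0.9997 by edgeR's quasi-likelihood test. The coding exons of Tlr7 were not measured by these tables, and a processed transcript may not follow them. By distance between centred log2 CPM profiles over the 4 libraries, the genes closest to Tlr7 among 8182 were Tma16, Il1a, Slc2a3, Klra2 and Wfdc21, at distances from 0.24 to 0.52. Il1a, the cytokine interleukin-1 alpha, was at 146.5 and 121.4 CPM in the controls and 740.8 and 676.6 in the Cd4-Cre libraries. A prior count of 2 was added before the log, which limits the contrast of a gene as low as Tlr7. Within 2 times the distance of Wfdc21 lay 41 genes. These profiles were ranked on the same 4 libraries, 18 fragments set that of Tlr7, and the match is a description.

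Tlr8, its neighbour on the X chromosome, had 7 fragments in control 1, 0 in control 2, 17 in Cd4-Cre 1 and 1 in Cd4-Cre 2. The groups overlapped, with control 1 above Cd4-Cre 2. Tlr8 did not pass the filter on low counts either. Of its 25 fragments, 72.0% lay in the long coding exon entry, of which 36 bases belong to no other entry.

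Tlr9, the receptor for unmethylated CpG DNA, had 49 fragments in control 1, 1 in control 2, 199 in Cd4-Cre 1 and 100 in Cd4-Cre 2. Both Cd4-Cre libraries lay above both controls, at 49.7 and 23.6 CPM against 10.7 and 0.264. The mean was 5.48 ± 7.38 CPM in controls and 36.7 ± 18.4 CPM in Cd4-Cre libraries (SD, n = 2 each). In the quasi-likelihood fit of edgeR the log2 fold change came to 2.73 (standard error, SE, 1.89, adjusted p = 0.9997 over 12434 genes), and the difference did not pass the threshold. Without control 2 it was 1.77 (SE 1.02).

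Tlr13, which recognises bacterial ribosomal RNA in mice, was the endosomal receptor with most fragments in 3 of the libraries. It had 514 fragments in control 1, 0 in control 2, 1653 in Cd4-Cre 1 and 617 in Cd4-Cre 2, or 112.2, 0, 412.6 and 145.9 CPM. The groups did not overlap, but Cd4-Cre 2 lay close to control 1. The mean was 56.1 ± 79.3 CPM in controls and 279.2 ± 189 CPM in Cd4-Cre libraries (SD, n = 2 each). It had a log2 fold change of 2.31 (SE 2.25, adjusted p = 0.9997 by edgeR), or 1.31 without control 2, the library in which it was not detected. Its exon 3 of 3799 bases held 99.0% of the fragments, so the counts of Tlr13, like those of Tlr9, come from protein-coding transcripts.

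The promoters of Tlr13 and Tlr9 are shown because these 2 endosomal receptors were counted over nearly their whole length and were both at 0 or 1 fragment in control 2. That of Myd88, the shared adaptor, is shown for its interferon response motif. RefSeq promoters of GRCm38.p6, from 250 bases before to 50 after a start, matched 7 of the 10 genes by symbol, with 9 promoters. Capitals mark GAGGAA, the core bound by ETS factors such as PU.1, or the core of the interferon response element (GAAA, any 2 bases, GAAA), on either strand, where TTCCTC is the first of these on the other strand. The windows are chrX:106143025-106143324 (plus strand), chr9:106222348-106222647 (plus strand) and chr9:119339969-119340268 (minus strand).
Tlr13 promoter: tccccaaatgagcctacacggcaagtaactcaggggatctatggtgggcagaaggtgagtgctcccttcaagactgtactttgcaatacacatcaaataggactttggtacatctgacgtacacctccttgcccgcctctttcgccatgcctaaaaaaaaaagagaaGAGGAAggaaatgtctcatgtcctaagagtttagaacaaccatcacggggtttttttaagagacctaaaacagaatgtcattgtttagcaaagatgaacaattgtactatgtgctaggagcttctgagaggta
Tlr9 promoter: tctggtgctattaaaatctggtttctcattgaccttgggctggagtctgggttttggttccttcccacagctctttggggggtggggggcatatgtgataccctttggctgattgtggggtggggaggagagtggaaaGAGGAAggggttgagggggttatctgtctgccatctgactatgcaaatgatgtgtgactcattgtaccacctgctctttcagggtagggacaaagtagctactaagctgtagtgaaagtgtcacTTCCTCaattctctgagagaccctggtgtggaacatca
Myd88 promoter: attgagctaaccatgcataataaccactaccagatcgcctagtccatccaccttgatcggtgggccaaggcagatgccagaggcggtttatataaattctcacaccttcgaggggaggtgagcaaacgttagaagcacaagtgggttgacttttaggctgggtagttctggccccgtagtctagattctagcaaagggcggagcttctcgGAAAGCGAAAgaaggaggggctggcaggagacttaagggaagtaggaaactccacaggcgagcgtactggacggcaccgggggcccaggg
GAGGAA stood in 5 of the 9 promoters (those of Tlr8, Tlr9 and Tlr13 and 1 each of Tlr1 and Irak3), and 28.3% of all 32851 promoters of this length in the table hold it. The other motif stood in that of Myd88 alone, and 3.44% of all promoters hold it. The window of Tlr2 held neither motif.

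Among the surface receptors, Tlr2, which senses bacterial lipopeptides with Tlr1 or Tlr6, had 9613 fragments in control 1, 1463 in control 2, 19571 in Cd4-Cre 1 and 11132 in Cd4-Cre 2. It made up between 71.3% and 89.3% of the fragments of the 10 genes in every library. Both Cd4-Cre libraries, at 4885 and 2632 CPM, lay above both controls, at 2098 and 386.2 CPM. The mean was 1242 ± 1211 CPM in controls and 3758 ± 1593 CPM in Cd4-Cre libraries (SD, n = 2 each). For Tlr2 edgeR gave a log2 fold change of 1.60 (SE 0.90, adjusted p = 0.9997), and 0.83 (SE 0.53) without control 2.

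Tlr4, the lipopolysaccharide receptor, had 312 fragments in control 1, 284 in control 2, 974 in Cd4-Cre 1 and 413 in Cd4-Cre 2. Levels were 68.1 and 74.97 CPM in the controls and 243.1 and 97.6 CPM in the Cd4-Cre libraries, so Cd4-Cre 1 stood well above the rest while Cd4-Cre 2 exceeded the controls by less. Its log2 fold change came to 1.25 (SE 0.76, adjusted p = 0.9997 by edgeR), 1.32 without control 2 and 0.50 without Cd4-Cre 1. The fold change of Tlr4 was thus nearly the same without control 2.

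Tlr1, a partner of Tlr2, had 6 fragments in control 1, 0 in control 2, 30 in Cd4-Cre 1 and 22 in Cd4-Cre 2. Both Cd4-Cre libraries lay above both controls, at 7.49 and 5.20 CPM against 1.31 and 0. In edgeR the log2 fold change of Tlr1 came to 3.20 (SE 2.40, adjusted p = 0.9997), and to 2.24 without control 2. Tlr1 passed the filter on low counts through its Cd4-Cre libraries, and it did not pass a minimum mean of 5 CPM. Its entry for the long coding exon, of 2620 bases, had 1 base of its own and held no fragment, so these counts come from the 5′ exons.

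**Figure D2:**
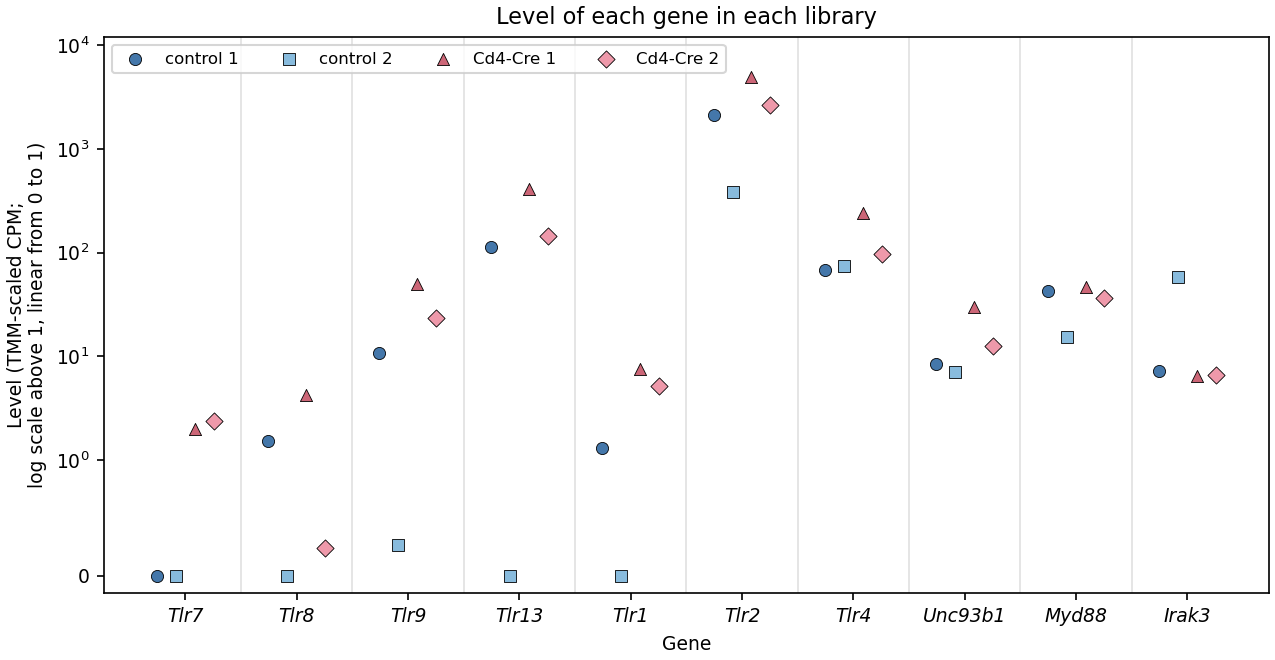
The level of each gene (TMM-scaled CPM, on an axis that is logarithmic above 1 and linear from 0 to 1) is plotted for the 4 libraries, 1 symbol per library. Control 2 was at 0 for Tlr7, Tlr8, Tlr13 and Tlr1 and highest for Irak3, and Cd4-Cre 1 was highest for 8 of the 10 genes (26.8% of the genes tested were highest there).

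Levels can be set side by side only per length, here as CPM per kilobase of bases that lie in exactly 1 entry, and only for receptors with at least 1000 such bases, a limit chosen after the values were seen. A fragment can extend past these bases, so the order is a rough one. Tlr2 was highest in all 4 libraries, at 696.2 CPM per kilobase in control 1, 128.1 in control 2, 1621 in Cd4-Cre 1 and 873.1 in Cd4-Cre 2. This was 8.02 to 26.1 times the next receptor in the same library. Tlr13 was at 26.6, 0, 98.0 and 34.6 CPM per kilobase in the same order, and Tlr4 at 14.5, 16.0, 51.8 and 20.8. Tlr9 was lower, at 3.08, 0.0759, 14.3 and 6.80. Tlr13 lay above Tlr4 in 3 libraries and below it in control 2, so these neighbours in the order are not apart beyond the spread between libraries. Tlr6, the other partner of Tlr2 and not among the 10 genes, was at 16.6, 0, 41.2 and 55.0 CPM per kilobase.

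Unc93b1, the chaperone that carries endosomal receptors out of the endoplasmic reticulum, had 39 fragments in control 1, 27 in control 2, 120 in Cd4-Cre 1 and 53 in Cd4-Cre 2. Both Cd4-Cre libraries, at 30.0 and 12.5 CPM, lay above both controls, at 8.51 and 7.13. This amounted to a log2 fold change of 1.44 (SE 1.40, adjusted p = 0.9997 by edgeR). All 239 fragments lay in 3 exon entries given to retained-intron transcripts, and none in a protein-coding one. The entry with most of them (chromosome 19, 3942440 to 3942818) had 28, 27, 43 and 26 fragments in control 1, control 2, Cd4-Cre 1 and Cd4-Cre 2, a log2 ratio of mean CPM of 0.35, where Cd4-Cre 2 no longer exceeded both controls. Most of the difference in Unc93b1 was in another entry (3936269 to 3936746), with 11, 0, 68 and 19 fragments. The 3 entries overlap exons of other transcripts, and 251 of 379, 324 of 478 and 190 of 344 of their bases lie in no other entry. The counts do not show where in an entry a fragment lay, so retained introns and spliced RNA cannot be told apart here.

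Myd88, the adaptor of all receptors above, had 197 fragments in control 1, 58 in control 2, 187 in Cd4-Cre 1 and 155 in Cd4-Cre 2. The groups overlapped, with control 1, at 43.0 CPM, between the Cd4-Cre libraries, at 46.7 and 36.6, and control 2 at 15.3. Its log2 fold change was 0.51 (SE 1.09, adjusted p = 0.9997 by edgeR), and it turned to -0.05 without control 2. The retained-intron entry at 119337754 to 119338710 held 99.2% of the fragments.

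Irak3, the inhibitor, was, of the 8 genes tested, the one with a negative fold change. It had 33 fragments in control 1, 220 in control 2, 26 in Cd4-Cre 1 and 28 in Cd4-Cre 2, or 7.20, 58.1, 6.49 and 6.62 CPM. Control 2 was high, and control 1 lay just above the Cd4-Cre libraries. Over both genotypes the log2 fold change was -2.31 (SE 1.55, adjusted p = 0.9997 by edgeR), and -0.14 (SE 1.44) without control 2. Of the 307 fragments, 97.7% lay in exon 4 of Irak3-203, a processed transcript, at 120160142 to 120160481. Highest levels in control 2 were found for 27.0% of the genes tested. In that library keratinocyte markers were also highest (summed level 24220 CPM against 1106 to 2463 in the others), and their part in the Irak3 value was not tested.

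**Figure D3:**
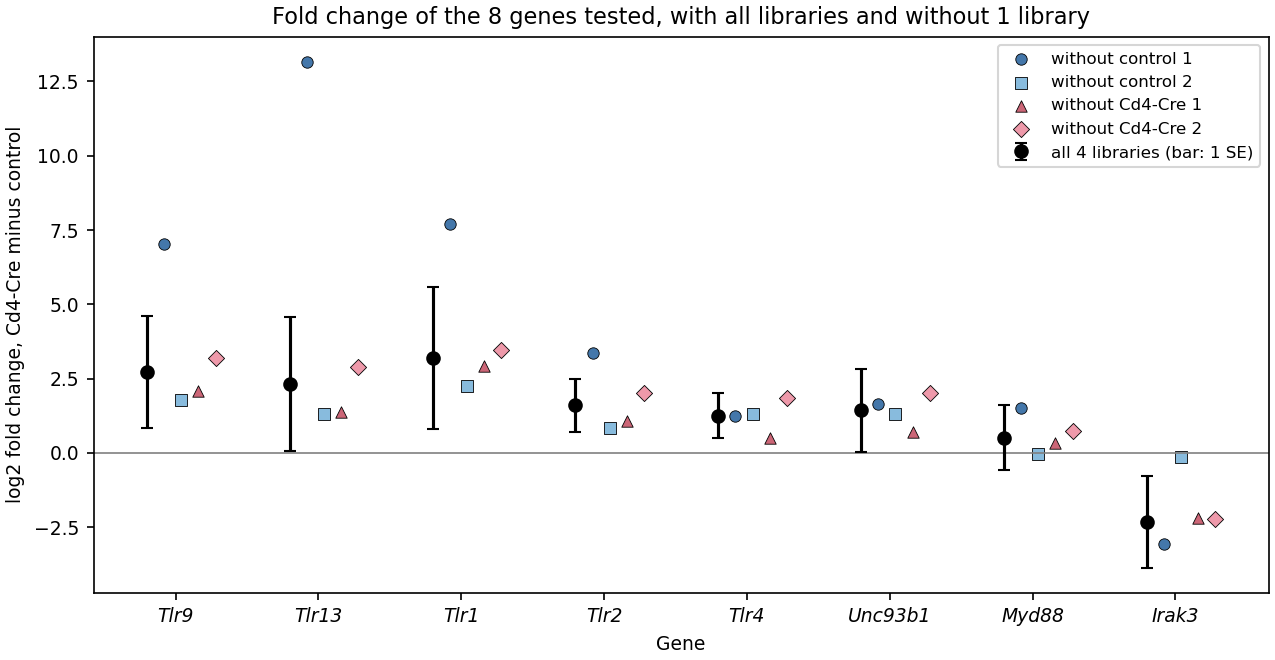
The log2 fold change (Cd4-Cre minus control) of the 8 genes tested is plotted with all 4 libraries (black, bar 1 standard error) and without each library in turn. Values without control 1 rest on control 2 alone and reach 13.15 for Tlr13, and those of Myd88 and Irak3 lie close to 0 without control 2.

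No gene of the 10 passed the threshold between the genotypes (edgeR, adjusted p under 0.05), and none of the 12434 genes tested did (0%). At an unadjusted p under 0.05 edgeR had 187 genes (1.5%), none of them among these. DESeq2 called 17 genes (0.188%), limma-voom 0 and edgeR without a filter on low counts 27 (0.11%), again with none of the 10. At an unadjusted p under 0.05, Tlr2 and Tlr13 were among 236 of 12434 genes by limma-voom. By edgeR without the filter, the same genes were among 593 of 24651. Their adjusted p-values were above the threshold in both. Of the 10 genes, 8 were tested. In 7 of the 10 both Cd4-Cre libraries lay above both controls, and in 1, Irak3, both lay below. Among genes tested, 19.5% had both Cd4-Cre libraries above and 11.2% had both below, and among all genes with a fragment 14.8% had both above. The fold change was positive in 7 of the 8, against 56.9% of all genes. Its median on the log2 scale was 1.52 over the 8 genes tested and 0.20 over all genes. The latter lay between 0.09 and 0.26 with other scaling factors. Of the 10 genes, 7 had their lowest level in control 2, as did 51.6% of the genes tested. Among the 7 with a positive fold change, Tlr1 passed the filter on low counts through its Cd4-Cre libraries alone, which favours that sign. The genes were chosen with earlier results of these data known, and these counts describe them only.

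Markers of other cells also differed between the libraries. Of the T cell markers, 6 of 15 had both Cd4-Cre libraries below both controls (11.2% of the genes tested did), and Cd4, Cd5, Lck and Zap70 were at 0 in control 2. Trac, for the constant region of the T cell receptor alpha chain, was the highest of the list. It reached 197.8 and 73.1 CPM in the controls and 34.9 and 25.5 CPM in the Cd4-Cre libraries. Of the 14 macrophage and monocyte markers, 9 had both Cd4-Cre libraries above both controls (19.5% of the genes tested did). Itgam and Cx3cr1 of that list were at 0 in control 2 and in Cd4-Cre 2. Tlr2 amounted to 11.5% of this summed level in control 1, 4.12% in control 2, 18.4% in Cd4-Cre 1 and 11.2% in Cd4-Cre 2. In bulk RNA, fewer cells of a type and less RNA per cell cannot be told apart, and the part of macrophage markers in the receptor values was not tested.

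Neutrophil markers (10 genes, led by Mmp8) summed to 369.3, 251.8, 1581 and 745.4 CPM in control 1, control 2, Cd4-Cre 1 and Cd4-Cre 2, with S100a9 and Ly6g at 0 in all 4. S100a9 had 13 bases of its own and Ly6g 607, so a 0 means less for the former. Most of each neutrophil sum was Mmp8, at 342.7, 231.5, 1527 and 642.8 CPM. Of the 3 neutrophil markers tested, 2 had a positive fold change. Mmp9 had a negative one, at 12.9, 0, 2.50 and 0.236 CPM. Plasmacytoid dendritic cells are known for high Tlr7 and Tlr9. Of the 8 markers listed for them, Siglech and Klk1 were at 0 in all libraries, with 98 and 317 countable bases. Other members were detected: Bst2 had 277 fragments in control 1, 0 in control 2, 253 in Cd4-Cre 1 and 226 in Cd4-Cre 2, Ccr9 had 23, 0, 5 and 20, and Cox6a2 had 70, 0, 7 and 13. The sum of that list (364.5, 4382, 390.1 and 232.4 CPM) was mostly Ly6d, which keratinocytes also express. B cell and plasma cell markers, of cells that carry Tlr7 and Tlr9 as well, summed to 67.0, 8.18, 1368 and 7.80 CPM, led by Igkc. Of that list Ighm had 224, 14, 685 and 11 fragments and Cd79a 21, 2, 31 and 9, while Cd79b and Mzb1 were at 0 in every library. Conventional dendritic cell and Langerhans cell markers, led by Ccr7, summed to 1838, 336.3, 1300 and 676.6 CPM. Fibroblast markers, led by Mmp2, summed to 15350, 3154, 6562 and 6987 CPM, mast cell markers, led by Hdc, to 327.7, 264, 221.6 and 521.5, and endothelial markers, led by Cldn5, to 67.9, 67.6, 56.4 and 172.6. Perp led the keratinocyte list.

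**Figure D4:**
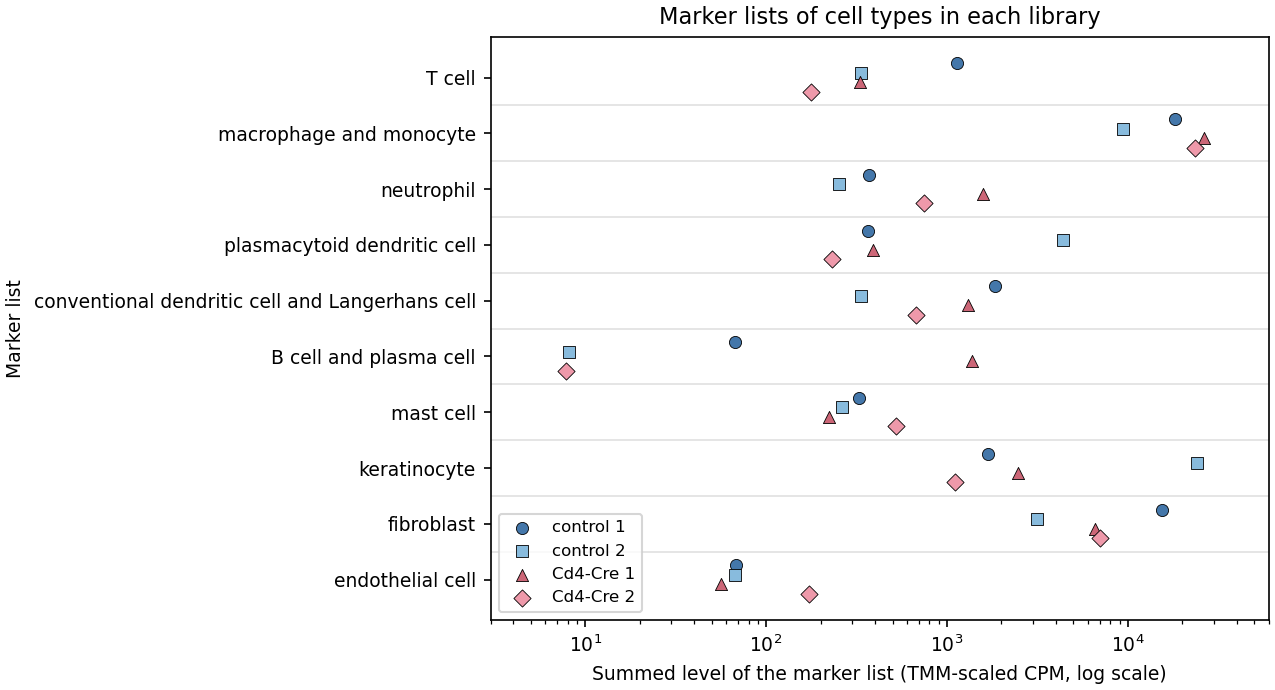
The summed level of each marker list (TMM-scaled CPM, logarithmic axis) is plotted for the 4 libraries. Macrophage and monocyte markers exceed T cell markers in all 4, and control 2 is highest for keratinocyte markers.

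The 5 other Toll-like receptors were mostly too low to test. Tlr6, which pairs with Tlr2, had 253 fragments in control 1, 0 in control 2, 550 in Cd4-Cre 1 and 775 in Cd4-Cre 2 and a log2 fold change of 2.53 (SE 2.17, adjusted p = 0.9997 by edgeR). The flagellin receptor Tlr5 had 6, 0, 33 and 9 fragments in this order. The double-stranded RNA receptor Tlr3 had 2 fragments and Tlr12 had 20, all in Cd4-Cre 1, and Tlr11 had none in any library. Of these, Tlr6 was the only one with more fragments in Cd4-Cre 2 than in Cd4-Cre 1.

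No member of the other pathway lists passed the threshold in either direction. Of 16 accessory and processing genes, 14 were tested, with 13 positive and a median log2 fold change of 1.03, or 0.46 without control 2. Cd14, the lipopolysaccharide co-receptor, was at 3005 and 977.5 CPM in the controls and 6786 and 6710 in the Cd4-Cre libraries (log2 fold change 1.76, standard error 0.67). Ly86, the partner of Cd180, had a log2 fold change of 0.88, the endolysosomal transporter Slc15a3 one of 1.72, and the protease Ctsb one of 0.70. Of 27 signalling genes downstream of the receptors, 22 were tested, with 19 positive and a median of 0.80, or 0.27 without control 2, where 14 were positive. The lowest p among them were those of the adaptor Ticam2, which works with Tlr4 (log2 fold change 1.98), the interferon regulatory factors Irf7 (2.12) and Irf8 (1.01), and the kinase Ikbkb (1.03). Chuk, among the 22 tested, passed the filter on low counts through its Cd4-Cre libraries alone, which favours a positive sign.

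Negative regulators other than Irak3 had 8 of 11 tested genes positive of 14 listed, and a median log2 fold change of 0.52. Tnip1, among the 11 tested, passed the filter on low counts through its Cd4-Cre libraries alone, which favours a positive sign. Lilrb4a, an inhibitory receptor of myeloid cells, had a log2 fold change of 1.69, the adaptor Pik3ap1 one of 1.85, Tollip one of 1.12 and Tnfaip3, a ubiquitin-editing enzyme, one of 0.52. Cytokine and chemokine targets of NF-kB had 14 of 16 tested genes positive of 18 listed, and a median of 1.16, or 0.80 without control 2. Il1a had a log2 fold change of 2.40 (standard error 0.53), Cxcl2, which attracts neutrophils, one of 1.94 (0.69), Il1b, interleukin-1 beta, one of 1.32 (0.53) and Ccl3 one of 1.33 (0.65), all at an adjusted p of 0.9997 by edgeR. Both Cd4-Cre libraries lay above both controls for 10 of the 18 listed genes, against 19.5% of the genes tested.

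Genes of the interferon response, which endosomal receptors can induce, had 12 of 12 tested genes positive of 16 listed, with a median log2 fold change of 2.25, or 1.62 without control 2. Ifnb1, interferon beta, had 20 fragments in control 1, 0 in control 2, 118 in Cd4-Cre 1 and 63 in Cd4-Cre 2 (log2 fold change 3.32, standard error 2.30). Ifit1 and Ifit3, antiviral proteins, had log2 fold changes of 3.93 and 3.26 with standard errors of 2.19 and 2.23, and Cmpk2, a nucleotide kinase, had 2, 0, 89 and 16 fragments. Cd4-Cre 1 was the highest library for these 4 genes. Of the 12 tested, Cmpk2 passed the filter on low counts through its Cd4-Cre libraries alone, which favours a positive sign.

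**Figure D5:**
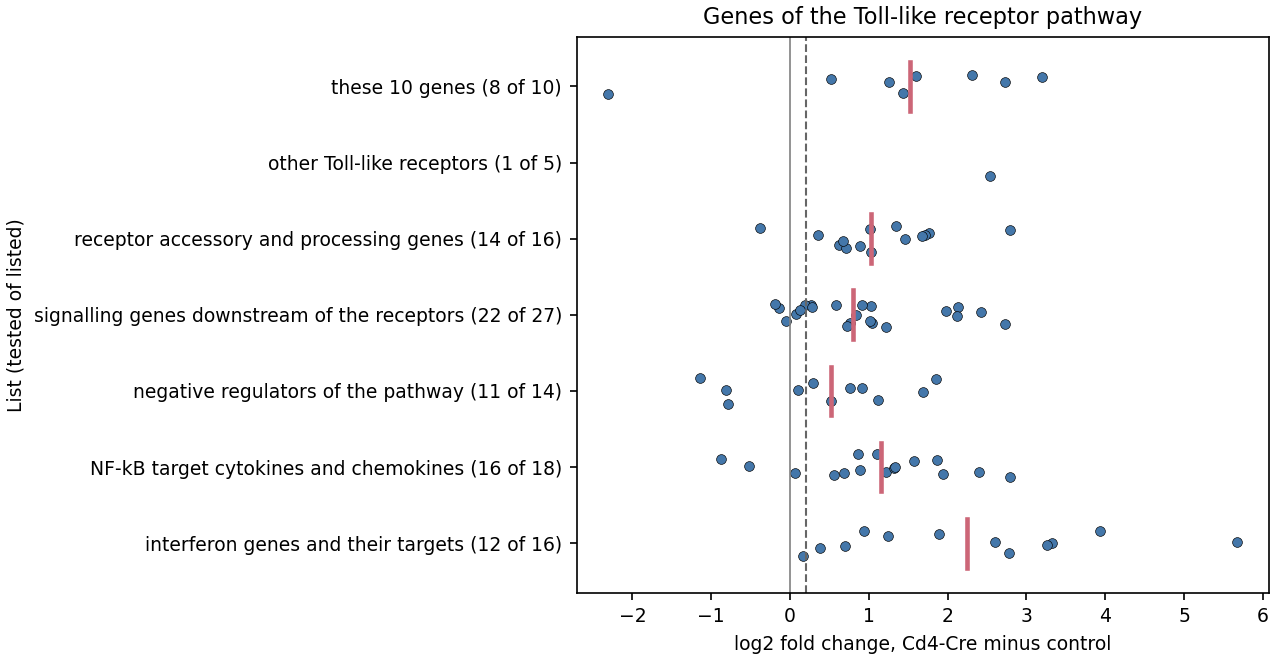
Each point is the log2 fold change (Cd4-Cre minus control) of a tested gene, by list, the short bars are medians of lists with at least 3 tested genes, and the dashed line is the median of all genes tested, 0.20. The median of these 10 genes, from the 8 tested, is 1.52, and list medians run from 0.52 for negative regulators to 2.25 for interferon genes.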

How the data were processed

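The deposited values are raw fragment counts for single exon entries, made by the authors with featureCounts 2.0.1 on GRCm38 alignments, GENCODE M23 and no strand, per the file headers. Pairs with an unmapped end and chimeric pairs were not counted. The submitters' processing notes name Trim Galore 0.6.7 and STAR 2.7.9a, and the sources used here do not say how duplicates were treated. Per the labels' protocols, cDNA was primed with oligo-dT and amplified by SMART, with no molecular identifiers described.

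Entries were summed per gene, and symbols matched 55154 of 55335 gene identifiers. Transcript types came from GENCODE M21, which holds 99.7% of the entries. The test was edgeR 4.0.16 in R 4.3.3 (filterByExpr at 10, TMM factors, quasi-likelihood test, two-sided, Benjamini-Hochberg at 0.05 over 12434 genes), checked on simulated counts. A standard error is the log2 fold change divided by the square root of its F. Tlr7 did not pass the filter, so a bound replaced its planned fold change. DESeq2 1.42.0 and limma 3.58.1 (voom) were alternatives. Libraries were numbered in accession order only to name them. Reads that map to several places were not counted.

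The 10 genes, the lists and the alternatives were chosen with earlier results of these data known. Genes named besides these are the other receptors, the 4 genes with the lowest p per pathway list at a mean of at least 5 CPM, the marker with the highest mean per cell type and the 5 genes closest in profile to Tlr7. Other markers and fragments of single exons were named after their values were seen.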

Additional observations from a re-analysis of the deposited data

Results flagged for a closer look

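For Tlr8 and Myd88, the difference between genotypes had opposite signs in the pair of libraries with Y-linked transcripts (Cd4-Cre 2 and control 1) and in the pair without them (Cd4-Cre 1 and control 2). The values are log2 ratios of CPM with 0.5 fragments added. Tlr8 was at 5.05 in the pair without Y-linked transcripts and -2.21 in the pair with them, and Myd88 at 1.60 and -0.23. With 1 library per genotype in each pair, the difference between the pairs was not tested. The other 8 genes had the same sign in both pairs, and Tlr13 was at 11.61 in the first pair, against 0 fragments in control 2, and 0.38 in the second. The pairs were formed after the data were seen, and control 2 is in the first of them, so that library and the pairing cannot be told apart.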

How the results depend on the processing

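With 2 libraries per genotype and 0 calls among all genes, no result here rests on passing the threshold. None of the 10 genes was called under any of the 13 other settings. Log2 fold changes without control 1 were 3.35 for Tlr2 and 13.15 for Tlr13, against control 2 alone. The bound for Tlr7, added after seeing the data, lay between 2.75 and 3.33 with 1 library left out. Over all genes, 27 were called without a low-count filter, 17 by DESeq2, and 0 to 4 with 1 library left out. The median log2 fold change of the 10 genes lay between 0.90 (without Cd4-Cre 1) and 2.49 (without control 1) with 1 library left out. Under the other alternatives it lay between 1.40 and 2.01. The value of 2.01, without retained-intron entries, is from 6 genes, as Unc93b1 and Myd88 were not tested there. The same leave-one-out range was 0.46 to 2.33 for accessory genes, 0.27 to 2.24 for signalling genes, 0.75 to 1.71 for NF-kB targets and 1.62 to 9.21 for interferon genes, each highest without control 1, and 0.28 to 0.82 for negative regulators, highest without Cd4-Cre 2. Without control 1, control 2 alone stood for the controls and the median of all genes was 1.72. The median of interferon genes was 4.33 by limma-voom, 4.42 with Y-linked transcripts as a covariate and 3.31 without retained-intron entries, and that of negative regulators was 0.89 without those entries. Of 101 fold changes of these genes under these settings, 100 kept their sign, and that of Myd88 was -0.0534 without control 2 (up to 1.51 without another library) and -0.23 within the pair of libraries with Y-linked transcripts. The cause was not tested. No paired analysis was possible because the labels number no replicates and state no pairing. A fit with the presence of Y-linked transcripts as a covariate, which the labels do not give, called none of the 10 genes and put the log2 fold change at 1.99 for Tlr2, 5.18 for Tlr13 and 4.01 for Tlr9. Where 1 library was left alone in a group, it was assumed to vary like the other group. Tlr7, Tlr8 and Tlr1 had 18 to 58 fragments in all, counted over 151 to 465 bases, and the parts of depth and of countable length in this were not tested.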
